A study of Mus musculus with 11 samples.

Results

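The genes described here were grouped as identity genes of inhibitory neurons: Gad2, Slc32a1, Dlx2, Sp9 and Sox1. They were followed in ribosome-associated RNA that was isolated from excitatory neurons of the hippocampus. Members were chosen by transcript identifier and are 7 of the 63244 transcript rows that were counted, with 3 rows for Gad2 (uc008ink.1, uc008ini.1 and uc008inj.1) and 1 row each for Slc32a1 (uc008nqk.1), Dlx2 (uc008kax.2), Sp9 (uc008kcj.2) and Sox1 (uc009kwa.2). All 7 passed the filter on low counts.

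The libraries came from male CaMKII-Cre:Ribotag mice of 2 to 3 months, in which Cre recombinase driven by the CaMKIIα promoter switches on an epitope-tagged ribosomal protein, Rpl22, so that ribosomes of CaMKIIα-expressing cells can be pulled down with their RNA. Sleep deprived (SD) mice were kept awake by gentle handling from lights on. Non-sleep deprived (NSD) mice of the same genotype were collected at the same time. There were 5 NSD libraries (replicates 2, 3, 4, 5 and B) and 6 SD libraries (replicates 1, 2, 3, 4, 6 and D), each made from the pooled hippocampi of a pair of mice. P-values therefore measure the spread between pools, and the tag marks cells by promoter activity, not by transmitter.

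Inhibitory neurons make GABA from glutamate with glutamic acid decarboxylases, load it into synaptic vesicles with a dedicated transporter, and acquire this capacity during development under transcription factors of the DLX and SP families. In the hippocampus such interneurons are outnumbered by the glutamatergic pyramidal and granule cells in which CaMKIIα is active.

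Each library held between 22074914 and 29549339 reads on transcripts. Reads that overlapped several transcripts, between 37.2% and 52.0% of a library, were set aside as ambiguous, so a row holds only reads particular to it and levels are compared between libraries, not between genes. In NSD 2, 12.3% of reads did not align uniquely and 27.6% lay outside annotated transcripts, against medians of 6.09% and 14.1% over all libraries. Markers of the labelled cell type could be checked by name only in part: Neurod2, a transcription factor of glutamatergic neurons, was at 336 ± 37.7 CPM in NSD and 385 ± 63.1 CPM in SD, and Emx1, a factor of the dorsal forebrain, at 29.1 ± 3.39 and 26.1 ± 2.71 CPM (CPM, counts scaled to a common library size with upper-quartile factors, mean ± standard deviation, n = 5 and 6). Of 10 excitatory-neuron markers 3 could be named. The third was a row of Camk2a, the gene whose promoter drives the Cre, which held only 35 to 66 counts per library and was at 2.51 ± 0.17 CPM in NSD and 1.89 ± 0.34 CPM in SD, without overlap of the groups (log2 fold change -0.41, two-sided exact permutation p = 0.00866, FDR = 0.9999 by edgeR's quasi-likelihood test with Benjamini-Hochberg adjustment). The part of this difference in the members' values was not tested. Mbp, which encodes a myelin protein of oligodendrocytes, was at 180 ± 12.4 CPM in NSD and 208 ± 19.6 CPM in SD, and no marker of the astrocyte, microglia, striatum or choroid plexus lists carried a name.

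A limit of the names bears on all results. The deposited rows carry identifiers only, and names were recovered through statistics of the same SD against NSD comparison that the authors tabulated. The 1998 rows named from their main table had p of at most 0.0986 in that comparison, so a row with a name was already likely to differ. The SD against NSD values of the members, and of every other named gene below, are therefore a description and not independent evidence of a difference.

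Of the 5 genes, 4 lie on mouse chromosome 2 in the GENCODE vM21 annotation of GRCm38: Gad2 at chr2:22622205-22693874 on the plus strand, Dlx2 at chr2:71543408-71546754 on the minus strand, Sp9 at chr2:73271925-73284706 and Slc32a1 at chr2:158610767-158615748 on the plus strand. Sox1 lies at chr8:12395295-12400126 on the plus strand. Dlx2 and Sp9 are 1725 kb apart. Exons of another gene overlap those of Slc32a1 (Gm14205) and Sp9 (Cir1) on the opposite strand and those of Sox1 (Gm25239) on the same strand, and whether counting used the strand is not given in the sources used here, so reads of those pairs may not be separable.

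The 5 genes moved together over the libraries (below), and upstream sequences are shown so that what stands before their starts can be compared. Sox1 is not shown because GENCODE places all but 26 bases of its window inside the gene. They are the RefSeq windows of GRCm38.p6, read 5′ to 3′ along the gene, from 250 bases before the RefSeq start up to that start or to the first base GENCODE places in the gene. Capitals mark matches to any of 5 short motifs searched on both strands, which were chosen after the sequences had been seen: TATAAA of core promoters, then TAATTA as the core bound by homeodomain factors, GGGCGG as the site of SP factors, CCAAT as the site of the NF-Y complex, and CACGTG as an E box.
Gad2, chr2:22622077-22622204, plus strand: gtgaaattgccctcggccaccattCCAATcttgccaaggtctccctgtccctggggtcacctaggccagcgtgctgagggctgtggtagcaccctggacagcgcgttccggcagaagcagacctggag
Slc32a1, chr2:158610508-158610757, plus strand: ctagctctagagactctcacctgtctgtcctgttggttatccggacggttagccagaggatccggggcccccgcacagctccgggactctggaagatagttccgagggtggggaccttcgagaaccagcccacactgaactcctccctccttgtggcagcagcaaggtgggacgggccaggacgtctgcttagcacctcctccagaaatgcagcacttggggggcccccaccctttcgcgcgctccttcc
Dlx2, chr2:71546755-71547004, minus strand: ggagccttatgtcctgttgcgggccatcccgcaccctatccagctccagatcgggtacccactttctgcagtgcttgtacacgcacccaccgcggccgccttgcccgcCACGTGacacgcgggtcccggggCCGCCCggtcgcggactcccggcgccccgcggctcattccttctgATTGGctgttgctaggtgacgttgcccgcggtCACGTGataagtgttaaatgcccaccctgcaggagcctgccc
Sp9, chr2:73271676-73271924, plus strand: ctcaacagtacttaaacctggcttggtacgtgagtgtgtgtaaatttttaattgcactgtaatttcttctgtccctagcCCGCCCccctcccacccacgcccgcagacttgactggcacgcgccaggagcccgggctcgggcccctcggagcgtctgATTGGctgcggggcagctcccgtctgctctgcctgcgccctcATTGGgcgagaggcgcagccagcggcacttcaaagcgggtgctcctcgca

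No motif was common to the 5 genes. In the full 250 bases, CCAAT stood before 4 of them (Gad2, Dlx2, Sp9 and Sox1), and 33.8% of all 32851 windows of this length held it. GGGCGG stood before Dlx2, Sp9 and Sox1 (32.7% of all windows) and CACGTG before Dlx2 (6.02%). The Sox1 matches to GGGCGG, at 211, 112 and 34 bases before the RefSeq start, lie inside the gene by GENCODE. Slc32a1 held none of the 5, and neither TATAAA (12.4% of all windows) nor TAATTA (4.84%) stood in any of the 5 windows. The share of G and C was 64.0% for Gad2, 62.4% for Slc32a1, 66.4% for Dlx2, 62.4% for Sp9 and 71.2% for Sox1, against a median of 52.4% over all windows. Between 77.5% and 92.2% of all windows had a lower share than these. The shares include 224 bases of the Sox1 window and 122 of the Gad2 window that GENCODE places inside the gene.

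Gad2 encodes GAD65, the glutamic acid decarboxylase that supplies GABA at nerve terminals. Its main row, uc008ink.1, was at 20.4 CPM in NSD 2, 43.1 in NSD 3, 77.8 in NSD 4, 35.98 in NSD 5 and 92.2 in NSD B. In the 6 SD libraries it ranged from 13.5 to 42.7 CPM with a median of 17.0. The groups overlapped through SD 2, the highest of the SD libraries, which lay above NSD 2 and NSD 5, while the other SD libraries all lay below every NSD library. The mean was 53.9 ± 30.0 CPM in NSD (standard deviation, n = 5) and 20.6 ± 10.96 CPM in SD (n = 6), a log2 fold change of -1.39 with a standard error of 0.32, or 2.62-fold lower in SD. By edgeR's quasi-likelihood test over 29599 rows, with Benjamini-Hochberg adjustment, the FDR was 0.176 and the threshold of 0.05 was not reached, while the two-sided exact permutation test of this row alone gave p = 0.0216. Fewer GABAergic cells among the source of the RNA and less of this RNA per cell cannot be told apart in bulk libraries.

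The other Gad2 rows held few reads, between 4 and 68 counts for uc008ini.1 and between 4 and 21 for uc008inj.1. Together they made up a few percent of the reads counted in the 3 Gad2 rows. Row uc008ini.1 was at 0.290 CPM in NSD 2, 1.04 in NSD 3, 1.94 in NSD 4, 0.963 in NSD 5 and 2.83 in NSD B, and at 0.143 to 0.888 CPM in SD with a median of 0.309. The order of the libraries was again NSD B and NSD 4 at the top, with NSD 2 inside the SD range. Its log2 fold change was -1.90 with a standard error of 0.46 (edgeR's quasi-likelihood test, Benjamini-Hochberg FDR = 0.238). Row uc008inj.1 was flatter, at 0.497, 0.562, 0.737, 0.377 and 0.874 CPM in NSD 2, 3, 4, 5 and B and at 0.143 to 0.544 CPM in SD with a median of 0.432. Here 2 NSD libraries lay inside the SD range and 3 SD libraries inside the NSD range, and the log2 fold change of -0.64 had a standard error of 0.34 (FDR = 0.9999 by the same test). As a share of the reads counted in the 3 rows, uc008inj.1 took 1.29% ± 0.61 in NSD and 2.05% ± 1.06 in SD. The share of uc008ini.1 was 2.33% ± 0.59 in NSD and 1.77% ± 0.66 in SD. With the 3 rows summed, the log2 fold change was -1.39 with a standard error of 0.32 (FDR = 0.173 by edgeR's quasi-likelihood test).

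Slc32a1 encodes VGAT, the transporter that fills synaptic vesicles with GABA or glycine. It was at 1.16 CPM in NSD 2, 2.94 in NSD 3, 4.66 in NSD 4, 1.80 in NSD 5 and 5.12 in NSD B, and at 0.540 to 2.66 CPM in SD with a median of 0.742. As for Gad2, SD 2 was the single SD library inside the NSD range. The means were 3.14 ± 1.73 CPM in NSD and 1.01 ± 0.82 CPM in SD (standard deviation, n = 5 and 6), and the log2 fold change was -1.65 with a standard error of 0.40, which did not pass the adjusted threshold (edgeR's quasi-likelihood test, Benjamini-Hochberg FDR = 0.239).

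**Figure D1:**
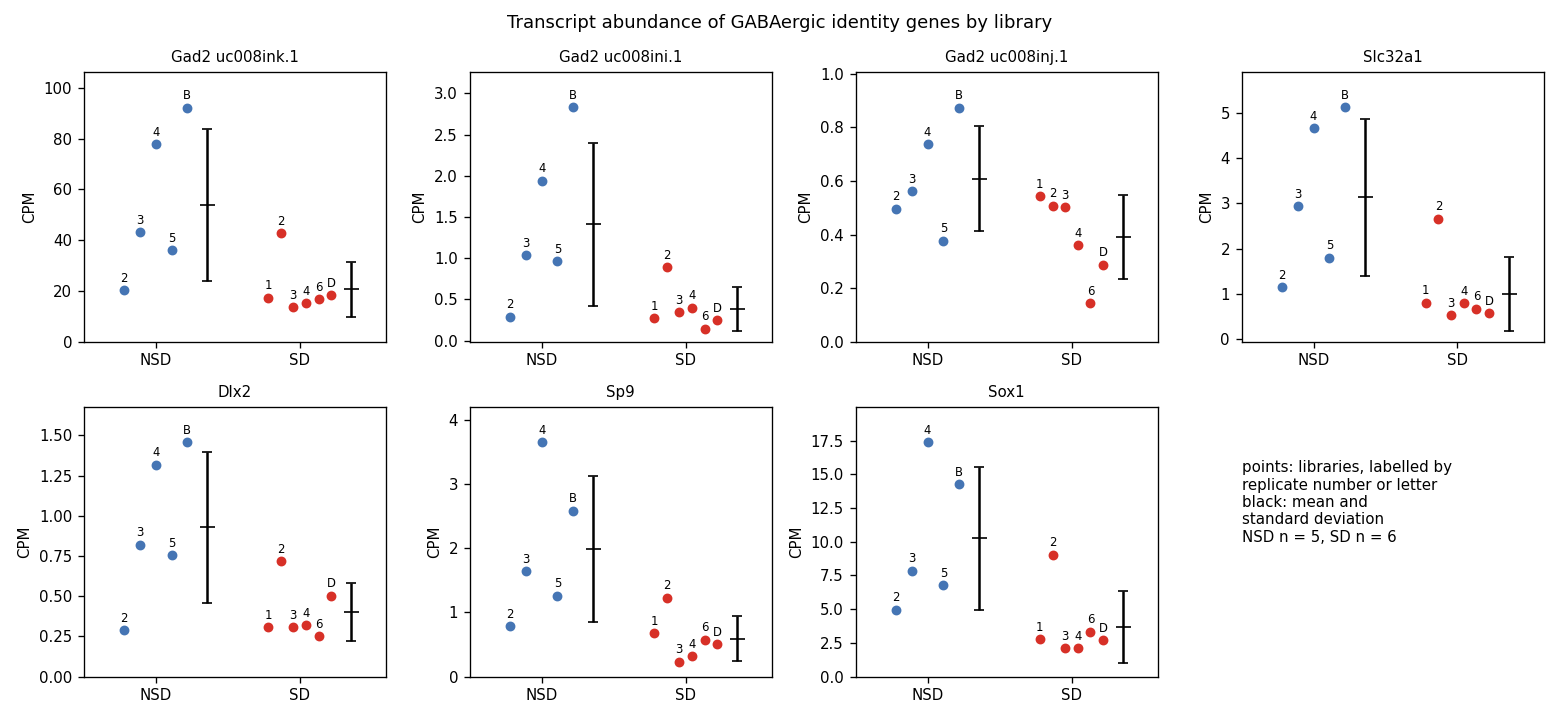
Abundance of each of the 7 rows in CPM on linear axes from 0, with 1 point per library labelled by its replicate number or letter and the mean and standard deviation in black (NSD, n = 5, blue; SD, n = 6, red). For Gad2 uc008ink.1, NSD 4 and NSD B stand at 77.8 and 92.2 CPM, and SD 2 at 42.7 CPM stands above the other SD libraries.

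Dlx2 encodes a homeodomain factor that specifies GABAergic neurons in the embryonic ganglionic eminences. Its level was 0.290 CPM in NSD 2, 0.821 in NSD 3, 1.32 in NSD 4, 0.754 in NSD 5 and 1.46 in NSD B, from 7 to 35 counts, and 0.251 to 0.719 CPM in SD with a median of 0.315. NSD 2 lay below all SD libraries but SD 6, so that 5 SD libraries were inside the NSD range. The log2 fold change was -1.21 with a standard error of 0.37 (edgeR's quasi-likelihood test, Benjamini-Hochberg FDR = 0.551).

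Sp9 encodes a zinc finger factor of the same developing lineages. It was at 0.786 CPM in NSD 2, 1.64 in NSD 3, 3.65 in NSD 4, 1.26 in NSD 5 and 2.58 in NSD B, and at 0.231 to 1.23 CPM in SD with a median of 0.538. SD 2 alone lay inside the NSD range. Sp9 had the lowest FDR of the 7 rows, 0.153 by edgeR's quasi-likelihood test with Benjamini-Hochberg adjustment, with a log2 fold change of -1.75 and a standard error of 0.39.

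Sox1 encodes an HMG-box factor of neural progenitors that is retained in some postmitotic GABAergic neurons. Levels were 4.97 CPM in NSD 2, 7.87 in NSD 3, 17.4 in NSD 4, 6.79 in NSD 5 and 14.3 in NSD B, and 2.12 to 9.05 CPM in SD with a median of 2.74. SD 2 was higher than NSD 2, NSD 3 and NSD 5, and the remaining SD libraries were lower than every NSD library. The log2 fold change was -1.49 with a standard error of 0.35 (edgeR's quasi-likelihood test, Benjamini-Hochberg FDR = 0.220).

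In all, 0 of the 7 rows passed FDR 0.05 in edgeR's quasi-likelihood test, where 0.0507% of all rows passed and 0.00676% passed as lower in SD. At an unadjusted p below 0.05, 6 of the 7 rows were lower in SD, where 1.91% of all rows were (4.45% in either direction). Limma voom with sample quality weights also called 0 of the 7. DESeq2 called 0 of the 3 to which it gave an adjusted p (Gad2 uc008ink.1, Slc32a1 and Sox1). The likelihood ratio test of edgeR called 5 of the 7, where it called 0.220% of all rows. All 7 log2 fold changes were below 0, with a median of -1.49 against 0.01 over the 29599 rows tested. In the two-sided exact permutation test of each row over all 462 assignments of 5 and 6 libraries, whose smallest p is 0.00216, p was 0.0216 for Gad2 uc008ink.1, 0.0281 for uc008ini.1, 0.0844 for uc008inj.1, 0.0195 for Slc32a1, 0.0368 for Dlx2, 0.00866 for Sp9 and 0.0130 for Sox1. Thus 6 of the 7 had p below 0.05 and were lower in SD, where 2.64% of all rows did so and 5.68% had such a p in either direction.

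The replicate labels form a numbered and a lettered series, and the lettered one has 1 library per group and so no test. NSD B exceeded SD D in all 7 rows, at 92.2 against 18.3 CPM for Gad2 uc008ink.1. Among the 9 numbered libraries all 7 rows were still lower in SD, but the two-sided exact permutation p was below 0.05 for Sp9 alone (p = 0.0397), where 1.91% of all rows were lower in SD with such a p, and was 0.0714 for Gad2 uc008ink.1 and for Slc32a1, 0.0556 for Sox1, 0.0952 for Dlx2 and for uc008ini.1, and 0.317 for uc008inj.1.

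**Figure D2:**
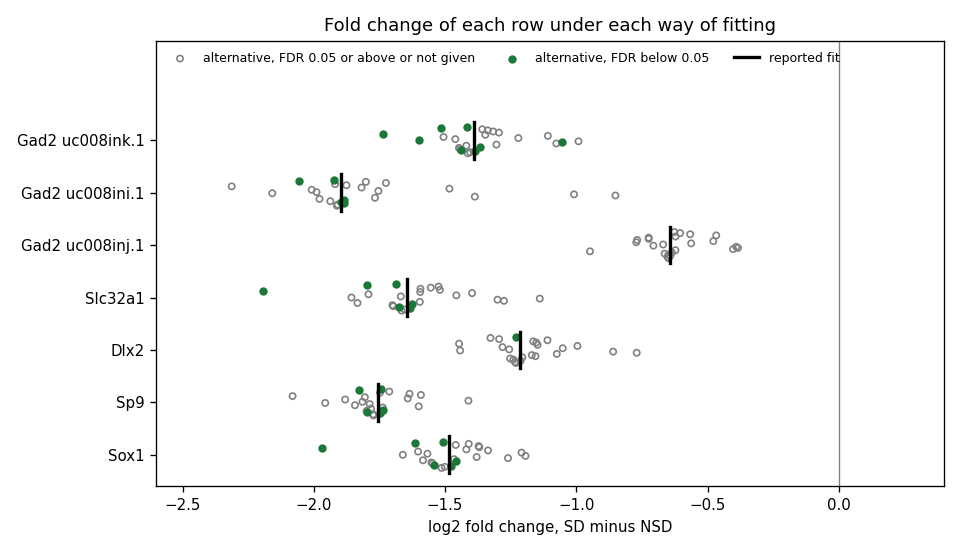
Log2 fold change of each row (SD minus NSD, x axis) in the reported edgeR quasi-likelihood fit (black bar) and under each other way of fitting or choosing libraries (points, green where the FDR was below 0.05). All points lie below 0, and for Gad2 uc008inj.1 none of them is green.

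The spread between libraries of 1 group was wide for these genes. Gad2 uc008ink.1 had a coefficient of variation of 55.7% in NSD and 53.2% in SD, where counting error alone gives 2.76% and 4.32% at its mean counts. The within-group standard deviation of its log2 CPM was 0.73, against a median of 0.17 in 2642 rows of similar abundance, and 99.7% of those rows had a smaller one. The same share was 99.1% for Sox1, 98.6% for Gad2 uc008ini.1, 98.5% for Slc32a1, 94.3% for Sp9, 79.5% for Dlx2 and 50.2% for Gad2 uc008inj.1. The last row thus varied as an ordinary transcript of its abundance, at a coefficient of variation of 32.4% in NSD where counting error gives 26.0%.

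**Figure D3:**
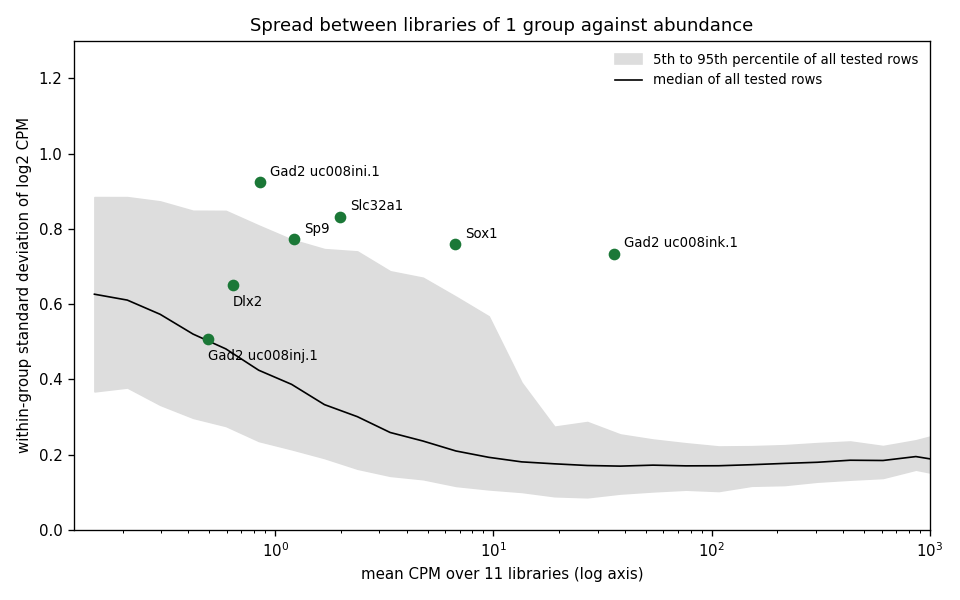
Within-group standard deviation of log2 CPM over the libraries (y axis) against mean CPM (x axis, log scale) for the 7 rows (green), with the median of all tested rows in bins of abundance (line) and their range without the lowest and highest 5% (grey band). Gad2 uc008ink.1 at 0.73, Sox1 at 0.76, Gad2 uc008ini.1 at 0.92 and Slc32a1 at 0.83 stand above the band. Sp9 at 0.77 lies at its edge, and uc008inj.1 lies near the median line.

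The 5 genes put the same libraries at the top. Ranked by CPM from the highest, NSD B and NSD 4 held ranks 1 and 2 for every gene, NSD 3 ranks 3 to 4, SD 2 ranks 3 to 5 and NSD 5 ranks 4 to 5. NSD 2 stood at rank 6 for Gad2, Slc32a1, Sp9 and Sox1 and at rank 10 for Dlx2. The order of the remaining SD libraries differed between genes, with ranks 7 to 9 for SD 1, 8 to 11 for SD 3, 7 to 10 for SD 4, 7 to 11 for SD 6 and 6 to 10 for SD D.

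To leave the group difference out, co-variation was measured on deviations of log2 CPM from the mean of each group. Pearson's r over the 11 libraries was between 0.795 (Dlx2 and Sp9) and 0.958 (Gad2 and Slc32a1) in the 10 pairs of genes, and Spearman's rho between 0.655 and 0.982. With exact permutation of the libraries within groups, all 10 pairs had p of at most 0.00690 for r after Benjamini-Hochberg adjustment over the pairs, and at most 0.0414 for rho. Gad2 and Slc32a1, which act in succession in GABA supply and storage, gave r = 0.958 (rho = 0.90), and Sp9 and Sox1 gave r = 0.936 (rho = 0.982). In the 9 numbered libraries, a subset added after seeing the data, r was between 0.807 and 0.978, and all 10 pairs kept an adjusted p below 0.05 in the same exact permutation test.

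Part of this rested on few libraries. Without the 2 libraries farthest from the median of the gene named first, r was between 0.517 and 0.936. By exact permutation with adjustment over the 10 pairs, 3 pairs then kept p below 0.05: Gad2 with Sp9 (r = 0.912, p = 0.0156) and Gad2 with Sox1 (r = 0.936, p = 0.0220), both without NSD B and SD 2, and Sp9 with Sox1 (r = 0.905, p = 0.0156), without NSD 4 and SD 2. The other 7 pairs did not. Gad2 with Slc32a1 (r = 0.919) and with Dlx2 (r = 0.908) had an adjusted p of 0.0708 without NSD B and SD 2. Without NSD 2 and SD 2, Slc32a1 had r = 0.731 with Sp9 (adjusted p = 0.0810, exact permutation), 0.792 with Sox1 and 0.593 with Dlx2, and Dlx2 had r = 0.517 with Sp9 and 0.625 with Sox1, with adjusted p between 0.143 and 0.201 for the last 4. Among the Gad2 rows, uc008ink.1 followed uc008ini.1 with r = 0.899 (rho = 0.609) and uc008inj.1 with r = 0.477 (rho = 0.455), at p of 0.0112 and 0.133 for r and 0.106 and 0.189 for rho by exact permutation within groups, adjusted over 3 pairs. Rows uc008ini.1 and uc008inj.1 had r = 0.647 (rho = 0.70), at an adjusted exact permutation p of 0.0448 for r and 0.0824 for rho.

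**Figure D4:**
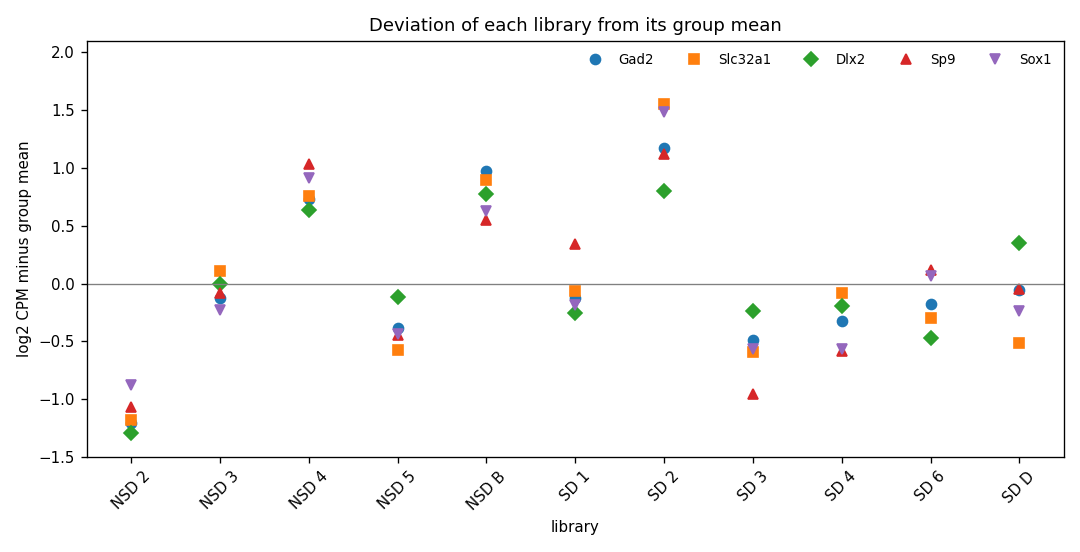
Deviation of log2 CPM from the group mean (y axis) for the 5 genes (symbols, Gad2 by uc008ink.1) in each library (x axis). All 5 symbols lie at or below -0.88 in NSD 2, above 0.55 in NSD 4 and NSD B, and above 0.80 in SD 2.

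Ratios between the genes varied less than their levels. Gad2 uc008ink.1 spanned 6.83-fold from the lowest to the highest library and Sox1 8.19-fold, but the ratio of their CPM spanned 1.73-fold. The ratio to Dlx2 spanned 1.94-fold, that to Slc32a1 2.16-fold and that to Sp9 2.73-fold, where these genes themselves spanned 5.81-fold, 9.48-fold and 15.8-fold.

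Among 19032 rows with at least 10 counts per library on average, r with Gad2 uc008ink.1 had a median of 0.05 and lay between -0.42 and 0.46 without the lowest and highest 5%, and 15 rows exceeded 0.9. These are correlations across the same 11 libraries and share their depth and scaling, and they are given as a description. Slc32a1 stood at rank 3, Sox1 at rank 7, Dlx2 at rank 11, Sp9 at rank 13, uc008ini.1 at rank 16 and uc008inj.1 at rank 831. Among the 10 named rows outside the set with the highest r were Clic4 (0.974), a chloride intracellular channel protein, Zfhx3 (0.969), a homeobox factor, the transcript A230065H16Rik (0.957), Ndnf (0.954), a secreted factor that marks neurogliaform interneurons, Zic1 (0.947) and Zic2 (0.936), zinc finger factors expressed in septal neurons, Glp1r (0.918), the receptor for glucagon-like peptide 1, Igfbpl1 (0.908), a transcript of newborn neurons, and Npffr1 (0.90), a neuropeptide FF receptor.

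**Figure D5:**
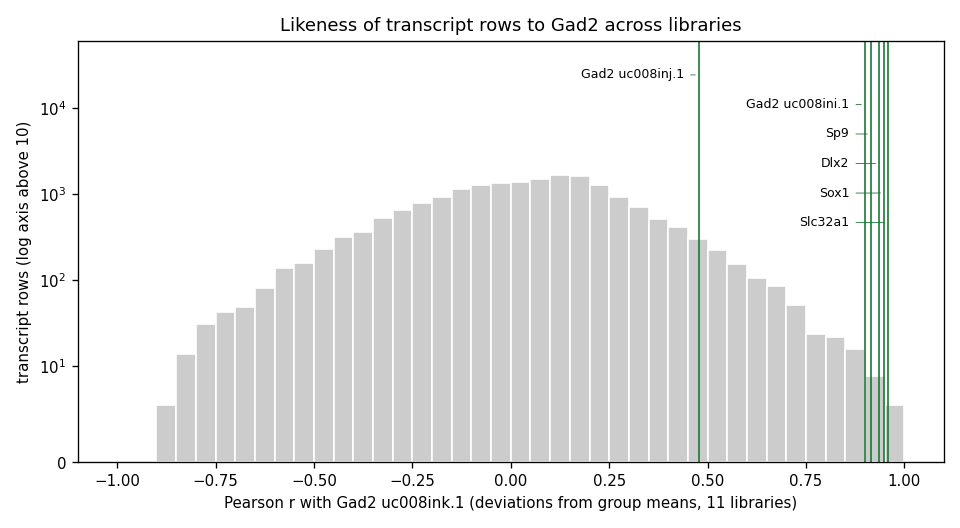
Number of transcript rows (y axis, log scale above 10) by Pearson's r of their deviations with those of Gad2 uc008ink.1 over 11 libraries (x axis, bins of 0.05), for 19032 rows, with the other members marked by green lines. Slc32a1, Sox1, Dlx2, Sp9 and uc008ini.1 lie between 0.899 and 0.958, and uc008inj.1 at 0.477.

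Of a list of 26 genes of GABAergic neurons, 8 could be named, in 10 rows that include the 7 members. None of the 10 passed FDR 0.05 in edgeR's quasi-likelihood test with Benjamini-Hochberg adjustment. All 10 had a log2 fold change below 0, with a median of -1.37. Names came through the same SD against NSD comparison, mostly for rows with a low p. Genes of the list without a name may have differed less, so the shared sign is a description. Rows outside the set included Dlx6, another homeodomain factor, with a log2 fold change of -1.34 and a standard error of 0.37 (FDR = 0.395). Its antisense neighbour Dlx6os1 had a log2 fold change of -0.75 and a standard error of 0.39 (FDR = 0.9999). If counting ignored the strand, reads lying within both would be set aside as ambiguous. In SD 2, the highest SD library for Gad2 uc008ink.1, Dlx6 was at 1.06 CPM against a mean of 0.611 ± 0.267 CPM over the SD libraries. Dlx6os1 did not follow, at 0.296 CPM (7 counts) in SD 2 against 0.419 ± 0.177 CPM.

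Zic1 had a log2 fold change of -1.88 with a standard error of 0.43, Zic2 of -1.62 with 0.39 and Zic5 of -1.57 with 0.40 (FDR = 0.176, 0.220 and 0.269 by edgeR's quasi-likelihood test with Benjamini-Hochberg adjustment). In SD 2, where the members were high, Zic2 was at 8.79 CPM against a mean of 3.86 ± 2.49 CPM over the SD libraries. Of the 13 markers of interneuron subtypes Ndnf alone was named, at 15.6 ± 5.11 CPM in NSD and 10.2 ± 2.00 CPM in SD. Of 6 neuroblast genes, Sox11, a factor of immature neurons, rose, from 71.7 ± 6.05 to 113 ± 15.7 CPM (FDR = 0.0139), while Igfbpl1 had a log2 fold change of -1.35 (FDR = 0.238) and Nrep, the third that could be named, of -0.36 (FDR = 0.9999). The part of tissue outside the hippocampus, of interneurons or of neuroblasts in the members' differences was not tested.

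No relation to a measure of library quality passed its test. Against the deviations of Gad2 uc008ink.1, the deviations of 6 measures (depth, 3 shares of uncounted reads and the first and second principal components) gave adjusted exact permutation p of at least 0.449. The strongest, the share of reads not uniquely aligned, gave r = -0.614 (rho = -0.318), and 0.056 without NSD 2 and NSD B. With 11 libraries such a relation could be missed.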

How the data were processed

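Ribosome-associated RNA was measured in 11 libraries grouped by their labels. The authors trimmed reads with Trimmomatic 0.36, aligned them to mm10 with STAR 2.7.5, counted them with HTSeq in intersection-nonempty mode, and deposited raw counts per UCSC transcript, not normalized. The version of HTSeq and the strand setting are not given in the sources used here. The 5 HTSeq tallies of uncounted reads, between 68.1% and 77.2% of a library, were left out. Names came from matching an edgeR likelihood ratio fit to the authors' supplementary statistics, which named 2259 rows. Their columns of fold changes and p-values served only for this matching and none is reported.

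The 29599 rows detected (1 count or more) in 5 or more libraries were scaled by upper-quartile factors, and compared by the two-sided quasi-likelihood test of edgeR 4.0.16 in R 4.3.3 at a Benjamini-Hochberg FDR of 0.05. These factors also scale CPM, and 2 was the prior count for log2 CPM. Standard errors were derived from the log2 fold change and the test statistic. Single rows were compared by the exact permutation test. Correlations used all 86400 within-group permutations, an exact enumeration in place of the planned random resamples, with a smallest p of 1.16e-05. The quasi-likelihood and correlation tests were tested on simulated data. Alternatives were TMM factors, DESeq2 1.42.0, the likelihood ratio test, other count filters and limma 3.58.1 voom with sample quality weights. Others were series and replicate terms and leaving out libraries. Figures used matplotlib 3.10.9.

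Named in the text are the members, every named row of the GABAergic list, Zic1, Zic2 and Zic5, and the 10 named rows most like Gad2 uc008ink.1, except for 1 gene that is not reported here. Further marker genes appear as checks. The members and lists were chosen with earlier results of these data known. Of the marker lists, 8 of 26 GABAergic, 1 of 13 interneuron subtype, 3 of 6 septal and Zic, 0 of 11 striatal, 3 of 6 neuroblast, 3 of 10 excitatory, 0 of 5 astrocyte, 1 of 6 oligodendrocyte, 0 of 4 microglial and 0 of 4 choroid plexus and vessel genes had a named row.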

Additional observations from a re-analysis of the deposited data

Results flagged for a closer look

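In 22 groups of libraries (7 rows and 4 library measures, each in NSD and in SD), 6 had a library far from the others by Dixon's test, where chance flags about 1 in 20 groups. Of these, 4 were SD 2, which was the highest SD library for Gad2 uc008ink.1 at 42.7 CPM, for Gad2 uc008ini.1 at 0.888 CPM, for Slc32a1 at 2.66 CPM and for Sox1 at 9.05 CPM. These rows co-vary, so the 4 are not separate events. The other 2 were NSD 2, with the lowest share of ambiguous reads in NSD at 37.2% and the highest share of reads not uniquely aligned at 12.3%. NSD 2 was also the lowest NSD library for 6 of the 7 rows, and whether its read shares have a part in that was not tested.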

How the results depend on the processing

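All 7 log2 fold changes stayed below 0 under every alternative run, from -2.31 to -0.38, while the calls depended on the fit. Against 0 members of 7 and 15 rows of all at FDR 0.05, the members called were 5 with the likelihood ratio test (65 of all rows), 5 with that test on counts brought to 1 upper quartile (274) and 5 with 1 count in 1 library as the filter (33). They were 0 with TMM (62), DESeq2 (133, with an adjusted p for 3 members), filterByExpr (191), at least 10 counts in every library (311, with 3 members tested), voom (58), the label series as a covariate (8), the numbered libraries (0) and FDR 0.1 (28). Chosen after seeing the data, the share of reads outside annotated transcripts as a covariate gave 5 (167) and the first principal component 6 (773). The cause was not tested.

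Leaving out 1 library gave 0 to 3 members and 1 to 69 rows of all: Gad2 uc008ink.1 passed without NSD 2 (13 rows of all), Gad2 uc008ink.1, Slc32a1 and Sox1 passed without SD 2 (19 rows of all), and the count of all rows was 2 without NSD 4, 1 without NSD B, 69 without SD 1, 9 without SD 3, 7 without SD 6 and 3 without SD D. By exact permutation, 6 rows had p below 0.05, 1 in the numbered libraries and 4 to 6 with 1 library left out, where 2.12% to 2.93% of all rows were lower in SD with such a p. Dlx2 lost it without any 1 library other than NSD 2 or SD 2, uc008ini.1 without NSD 3, NSD 4, NSD B, SD 1, SD 6 or SD D, and uc008inj.1 gained it without NSD 5. The lowest r of the 10 pairs was 0.716 to 0.841 with 1 library left out, and 0.517 (highest adjusted p = 0.201, exact permutation) without the 2 farthest libraries.

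A replicate block over the 6 libraries that share a number called 1 member (Gad2 uc008ink.1, FDR = 0.0251) and 6 rows of all, against 0 and 3 in these libraries without the block. Same-numbered libraries correlated at -0.36 to -0.26 in 3 pairs, which are too few to decide whether the numbers mark a pairing. Rows uc008ini.1, uc008inj.1, Dlx2 and Sp9 held few counts. In NSD, counting error alone gives a coefficient of variation of 26.0% for uc008inj.1, where 32.4% was seen. It gives 17.0% for uc008ini.1 (69.9% seen), 21.0% for Dlx2 (50.6% seen) and 14.3% for Sp9 (57.5% seen). The part of depth in the results of these rows was not tested.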
